A study of Homo sapiens with 6 samples.

Results

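The entries described here are 41 internal regions of human endogenous retroviruses and related elements, out of 15641 entries in a table of repeat counts. They were taken by name: entries ending in -int, less those whose names start with MER, MST, MLT, THE1, HERVK, HERVH, HERV9, HERV17, HERVE, HERVI or HERVL. The table holds 102 entries with that ending, so 61 of them fall outside this set. The naming rule itself uses no measured value.

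RNA bound to chromatin was sequenced from the human embryonic stem cell line H9, an established line, in 3 libraries labelled naive and 3 labelled primed. The naive state is kept in RSeT medium and is taken to resemble an earlier embryonic stage than the primed state of conventional culture. The growth text given for all 6 libraries describes RSeT culture. The primed group therefore rests on the treatment label and on the sample titles, which start with P in this group and with N in the other. All groups are one cell line with no genetic change named, and separate cultures are not stated, so p-values measure only how much these libraries vary, and that spread may be technical. The rows are repeats, so marker genes of the 2 states were not analysed here. In bulk RNA, fewer cells with a transcript and less of it per cell cannot be told apart.

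Retroviral insertions in the germ line leave a provirus in which an internal region, coding for the gag, pol and env proteins, lies between a pair of long terminal repeats (LTRs) that hold the promoter and the polyadenylation signal. Recombination between the LTRs often removes the internal part and leaves a solitary LTR. Counts over an internal region therefore come from copies that still have it, and LTR counts come from solitary and flanking LTRs alike. Some groups of these elements, HERVH above all, are known for their transcription in human pluripotent cells.

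The members fall into class I groups, which are related to gammaretroviruses, and class III groups of the ERVL type, which are older and more distantly related to foamy viruses. Of the class I members, 10 carry a HERV name (HERV3, HERV15, HERV30, HERV35I, HERV-Fc1, HERV-Fc2, HERVFH19, HERVFH21, HERVP71A and HERVS71). A further 10 class I members are called HUERS-P, PABL, PRIMA or Harlequin. Another 12 are named by the number of their LTR, and 5 are of the ERVL type by name. The remaining 4 are LOR1, ERV24_Prim, ERV24B_Prim and MamGyp. Grouping went by name alone, so the 12 were not assigned to a class and may hold further class III families. MamGyp stands for an ancient gypsy-type LTR element of mammals and is not an endogenous retrovirus in the strict sense, so the word retroviral is loose for that entry. Each entry adds up all genomic copies of a family, so no entry has a single position, and families of like sequence may share reads.

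Library totals ranged from 7192242 to 17791046 counts in 5 libraries, while primed library 2 held 118793. All 41 members passed the filter on low counts. They held between 45717 and 102531 counts in the 5 deeper libraries and 1000 counts in primed library 2, where 20 of them had fewer than 10. Where a group has a value per library, they follow the order of library numbers. Levels are given as CPM, which is counts over the product of library total and TMM factor. A level of 3 counts is 16.7 CPM in that library and 0.210 to 0.379 CPM in the others. Alpha satellite and ribosomal RNA made up 31.3%, 48.5% and 34.6% of naive libraries 1 to 3, against 17.9%, 4.65% and 8.31% of the primed libraries.

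Of the 41 members, 8 rose in naive cells, 1 fell and 32 did not pass the test. HERV30-int, HERV15-int and HUERS-P2-int rose the most, by 2.61-, 2.59- and 2.01-fold. LTR49-int, HUERS-P3-int, HUERS-P3b-int, Harlequin-int and HERV3-int rose by between 1.57- and 1.77-fold. LTR43-int was the member that fell, by 1.35 ± 0.31 on the log2 scale (SE). With library size alone these 8 changes were between 0.00052 and 0.76 and none was called. The test was edgeR's quasi-likelihood test with Benjamini-Hochberg adjustment over 3219 tested entries at 0.05.

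The 8 that rose are 19.5% of the members and the 1 that fell is 2.44%. Over all entries tested, 4.94% were called higher and 7.77% lower. Most tested entries are simple repeats, and among the 1265 named repeats tested (transposable elements, satellites and structural RNAs) 10.4% were called higher and 1.19% lower. The median log2 change of the members was 0.28, against 0.21 for named repeats and -0.0046 for all entries tested. Among the other 61 internal entries 18 were called higher (29.5%, above the share of the members) and 0 lower, with a median of 0.41. Whether the members differ from named repeats as a set was not tested. All 9 calls were lost without primed library 1 (adjusted p from 0.0972 to 0.255 for these members), a fit in which 8 entries of the whole table were called higher and 7 lower.

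**Figure D1:**
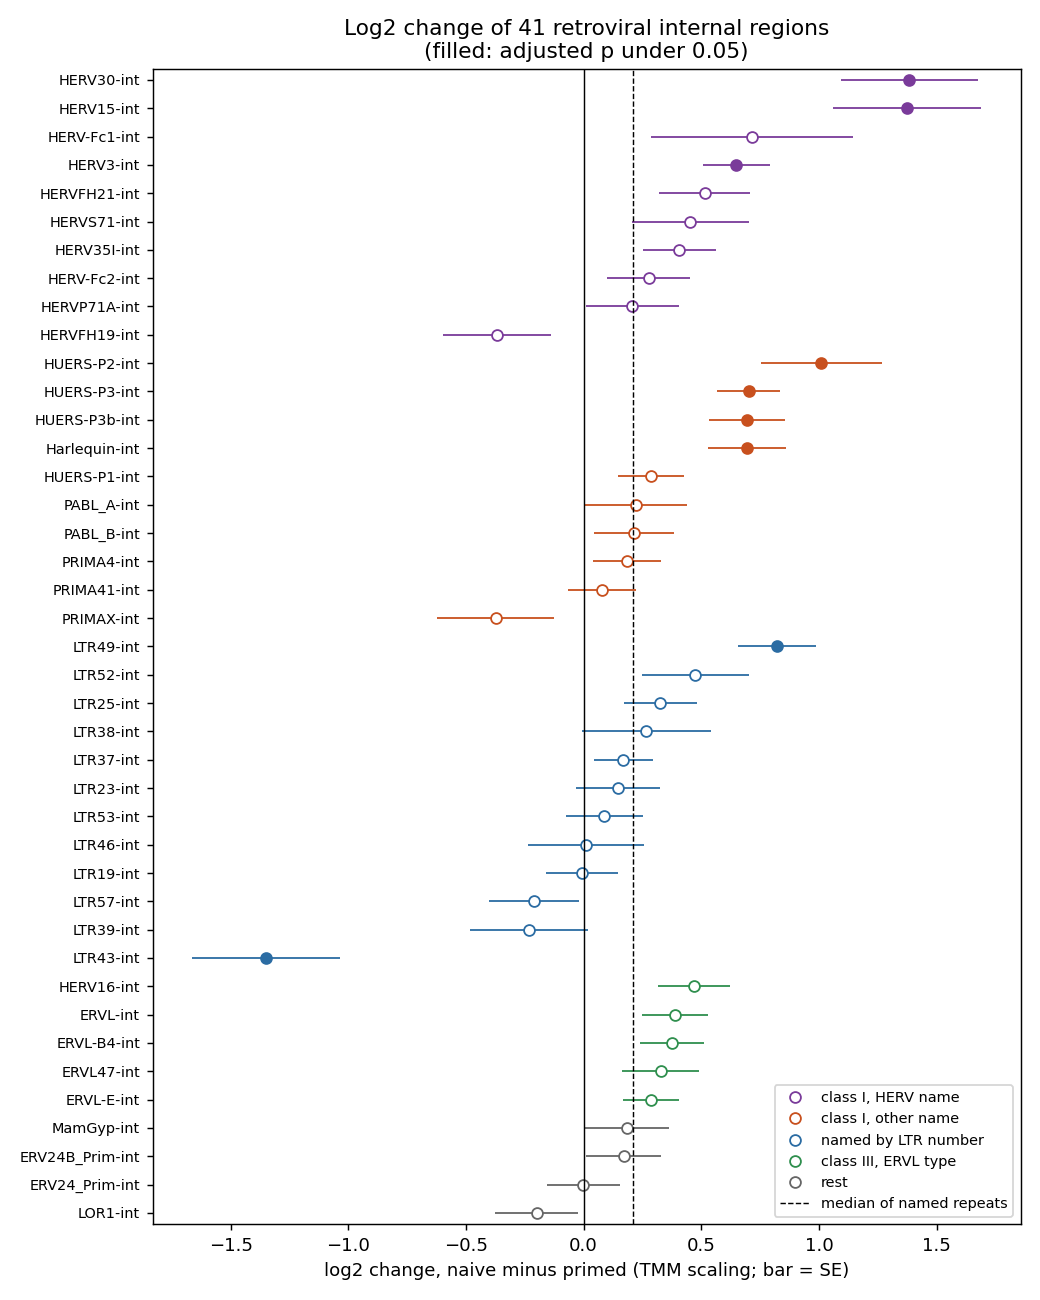
Log2 change (naive minus primed, TMM scaling) of the 41 internal regions, grouped by kind; bars are standard errors, filled points passed at adjusted p under 0.05, and the dashed line is the median of named repeats (0.21). The filled points are 8 members to the right and LTR43-int to the left, at -1.35.

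Among the class I members with a HERV name, 3 of 10 rose, 0 fell and 7 missed the threshold (median log2 change 0.48). Of named repeats 10.4% were called higher and 1.19% lower, and no group of members was tested against them. The calls of HERV3-int and HERV15-int were lost with simple repeats left out. HERV3-int is the internal part of the group that holds ERV3-1, a gene for a retroviral envelope protein known from human placenta. It stood at 279, 312 and 280 CPM in naive libraries 1 to 3 and at 173, 156 and 213 CPM in primed libraries 1 to 3. All naive values lay above all primed values, and the log2 change was 0.65 ± 0.14 (SE; edgeR adjusted p = 0.0208).

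HERV15-int had 33.6, 83.45 and 48.4 CPM in the naive group, against 21.8, 11.2 and 22.1 CPM in the primed group. The groups did not overlap, naive library 2 stood above the other naive libraries, and the primed library 2 value rests on 2 counts. The log2 change was 1.37 ± 0.31 (SE; edgeR adjusted p = 0.0236), and it missed the threshold without primed library 3 (1.41; adjusted p = 0.0528).

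HERV30-int was at 14.6, 21.2 and 19.4 CPM in the naive group, against 5.56, 11.2 and 8.15 CPM in the primed group. Here too every naive value was above every primed value, and primed library 2 again held 2 counts, whose exact 95% Poisson interval is 1.35 to 40.3 CPM (counting error only). The log2 change was 1.38 ± 0.29 (SE; edgeR adjusted p = 0.0177).

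HERVS71-int, the internal part of the group also called HERV-T, was at 563, 410 and 452 CPM in the naive group, against 242, 547 and 310 CPM in the primed group. Primed library 2 thus lay within the naive range, with 98 counts (exact 95% Poisson interval 444 to 667 CPM), and the other primed values lay below it. The log2 change was 0.45 ± 0.25 (SE; edgeR adjusted p = 0.232). It passed the test without primed library 2 (0.80; edgeR adjusted p = 0.0228) and was 0.18 without primed library 1 (adjusted p = 0.777).

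HERV-Fc1-int had the third largest log2 change in this group, 0.71 ± 0.43 (SE; edgeR adjusted p = 0.276), and a reading of its libraries gives no separation. It was at 6.02, 12.8 and 6.80 CPM in the naive group, against 3.91, 16.7 and 5.57 CPM in the primed group, where 16.7 CPM is 3 counts. The primed mean of 8.74 CPM is in fact above the naive mean of 8.53 CPM. HERVFH19-int, of the HERV-F and HERV-H related lineage, was the member of this group below 0, at -0.37 ± 0.23 (log2, SE; edgeR adjusted p = 0.288). Its values were 13.7, 14.9 and 17.3 CPM in the naive group, against 20.1, 11.2 and 21.0 CPM in the primed group, so the groups overlapped through primed library 2.

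**Figure D2:**
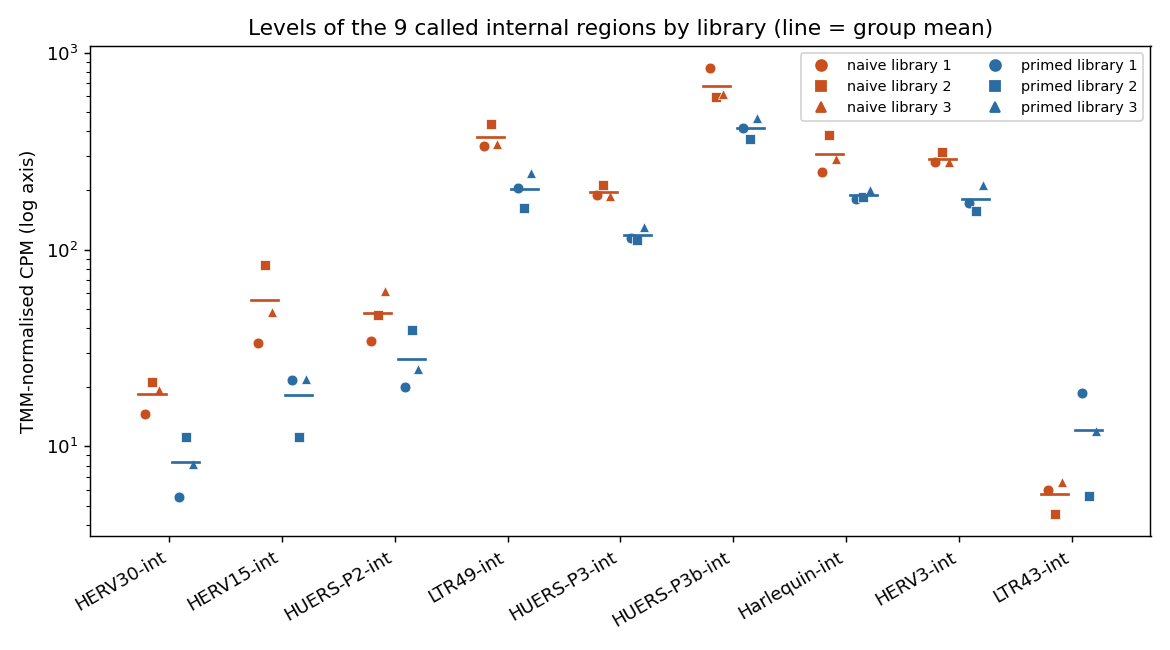
TMM-normalised CPM (log axis) of the 9 called internal regions in each library; symbols mark the library number and lines the group means. In 7 of the 9 the naive points all lie above the primed points, while for HUERS-P2-int and LTR43-int primed library 2 lies within the naive range.

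In the other named class I groups 4 of 10 rose, 0 fell and 6 missed the threshold (median log2 change 0.26), beside 10.4% of named repeats called higher and 1.19% lower. The calls of HUERS-P2-int, HUERS-P3b-int and Harlequin-int were lost with simple repeats left out. Of the 4 HUERS-P entries, named for a primer binding site that matches proline tRNA, 3 rose. HUERS-P3-int was at 190, 213 and 186 CPM in the naive group, against 115, 112 and 130 CPM in the primed group. Its groups were well apart beside their spread (196 ± 14.8 and 119 ± 9.97 CPM, SD, n = 3), with a log2 change of 0.70 ± 0.13 (SE; edgeR adjusted p = 0.0133).

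HUERS-P3b-int was at 835, 593 and 617 CPM in the naive group, against 417, 363 and 469 CPM in the primed group (log2 0.69 ± 0.16, SE; edgeR adjusted p = 0.0236). Naive library 1 was the highest, and the groups did not overlap. HUERS-P2-int was at 34.2, 46.4 and 61.6 CPM in the naive group, against 20.1, 39.1 and 24.8 CPM in the primed group, where 39.1 CPM is 7 counts. These groups overlapped, and the log2 change of 1.01 ± 0.26 (SE; edgeR adjusted p = 0.0302) was no longer called when naive library 3 (0.80; 0.0706) or primed library 3 (1.08; 0.0677) was left out. HUERS-P1-int did not pass, at 0.29 ± 0.14 (log2, SE; edgeR adjusted p = 0.182).

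Harlequin-int belongs to a mosaic element that is related to HERVE and shares LTR2 with it. It was at 249, 381 and 289 CPM in the naive group, against 181, 184 and 200 CPM in the primed group. The primed values were close together (188.7 ± 10.2 CPM, SD, n = 3) and all below the naive ones. The log2 change was 0.69 ± 0.17 (SE; edgeR adjusted p = 0.0263), and without naive library 2, the highest, it was 0.54 (adjusted p = 0.0802). The HERV3-int call was lost in that fit as well (0.63; edgeR adjusted p = 0.0562).

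PABL_B-int was at 409, 353 and 349 CPM in the naive group, against 368, 218 and 339 CPM in the primed group. Only primed library 2 stood clearly lower, and the log2 change was 0.21 ± 0.17 (SE; edgeR adjusted p = 0.427). PRIMAX-int was the entry of this group below 0, at -0.37 ± 0.25 (log2, SE; edgeR adjusted p = 0.324). It was at 15.9, 14.6 and 14.4 CPM in the naive group, against 19.9, 5.58 and 21.0 CPM in the primed group, with 1 count in primed library 2.

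The 5 entries of the ERVL type by name lay close together, with 0 called and log2 changes from 0.29 to 0.47. Entries named by an LTR number were not sorted by class, so this range need not hold for class III as a whole. An unadjusted edgeR p under 0.05 was reached by 4 of the 5, beside 398 of 1265 named repeats and 1017 of 3219 entries tested. DESeq2 called 0 of the 5. ERVL-E-int, which had the most counts of any member, was at 1204, 1354 and 1307 CPM in the naive group, against 1017, 1005 and 1142 CPM in the primed group. Its groups did not overlap, at a log2 change of 0.29 ± 0.12 (SE; edgeR adjusted p = 0.129). ERVL-B4-int was at 905, 793 and 698 CPM in the naive group, against 659, 570 and 610 CPM in the primed group (log2 0.38 ± 0.14, SE; edgeR adjusted p = 0.0873). HERV16-int came nearest to the threshold, at 0.47 ± 0.15 (log2, SE; edgeR adjusted p = 0.0615). It passed without naive library 1 (0.61; edgeR adjusted p = 0.0206).

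Of the 12 internal regions named by an LTR number, 1 rose, 1 fell and 10 missed the threshold (median log2 change 0.12). That is 8.33% in each direction, beside 10.4% of named repeats called higher and 1.19% lower. LTR49-int was at 336, 437 and 346 CPM in the naive group, against 206, 162 and 244 CPM in the primed group. The groups did not overlap, and the log2 change was 0.82 ± 0.17 (SE; edgeR adjusted p = 0.0156).

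LTR43-int went the other way, with 6.02, 4.56 and 6.585 CPM in the naive group, against 18.7, 5.58 and 12.03 CPM in the primed group. The call (log2 -1.35 ± 0.31, SE; edgeR adjusted p = 0.0236) rests on primed libraries 1 and 3, because primed library 2 held 1 count (exact 95% Poisson interval 0.141 to 31.1 CPM) and lay within the naive range. It missed the threshold without naive library 2 (-1.17; edgeR adjusted p = 0.0728) and by DESeq2 on its own filter (-1.33; DESeq2 adjusted p = 0.0602).

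LTR39-int and LTR57-int were also below 0 without passing. LTR39-int was at 10.7, 15.5 and 13.4 CPM in the naive group, against 14.4, 11.2 and 17.2 CPM in the primed group (log2 -0.23 ± 0.25, SE; edgeR adjusted p = 0.560). LTR57-int was at 30.2, 28.0 and 25.4 CPM in the naive group, against 33.0, 44.7 and 29.0 CPM in the primed group (log2 -0.21 ± 0.19, SE; edgeR adjusted p = 0.487). Both pairs of groups overlapped.

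None of the remaining 4 entries passed in edgeR with TMM factors or in DESeq2, and 0 of them had an unadjusted p under 0.05 in that edgeR fit. Their log2 changes there ran from -0.20 for LOR1-int, a primate element, to 0.18 for MamGyp-int. With library size alone LOR1-int was called lower (log2 -0.86, edgeR adjusted p = 0.00735). Over all members, naive and primed values did not overlap for 16 of 41 (39.0%), with naive above in each, against 36% of named repeats with naive above and 3.24% with naive below. The share with naive above is thus near that of named repeats in general.

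Direction depended on how libraries were scaled, since 33 of 41 members had a log2 change above 0 with TMM factors and 9 of 41 with library size alone. Under library size alone the median of named repeats moved from 0.21 to -0.42 and that of all entries tested from -0.0046 to -0.61. There 0 members were called higher and 5 lower (LTR43-int, LOR1-int, HERVFH19-int, PRIMAX-int and LTR57-int). Of all 3219 entries tested in that fit, 28 were called higher and 1043 lower. With simple repeats left out, TMM put the median of named repeats at -0.0082. In that fit 22 of 41 members were above 0, 3 rose (HUERS-P3-int, HERV30-int and LTR49-int) and LTR43-int fell. Of all 1265 entries tested there, 31 were called higher and 17 lower.

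Relative to the median of named repeats, the members kept nearly the same distance under these 3 scalings. This is largely built in, because other scaling factors shift all entries by nearly the same amount. It therefore does not show that the calls are independent of scaling. HERV30-int lay 1.17, 1.18 and 1.20 above it (log2; TMM, library size alone, and TMM without simple repeats), and HERV15-int lay 1.16, 1.15 and 1.15 above it. HUERS-P2-int was 0.80, 0.79 and 0.83 above, and HERV3-int 0.44, 0.42 and 0.43. LTR43-int lay below it in each, at -1.56, -1.46 and -1.58. ERVL-E-int was close to the median of named repeats, at 0.076, 0.021 and 0.063.

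**Figure D3:**
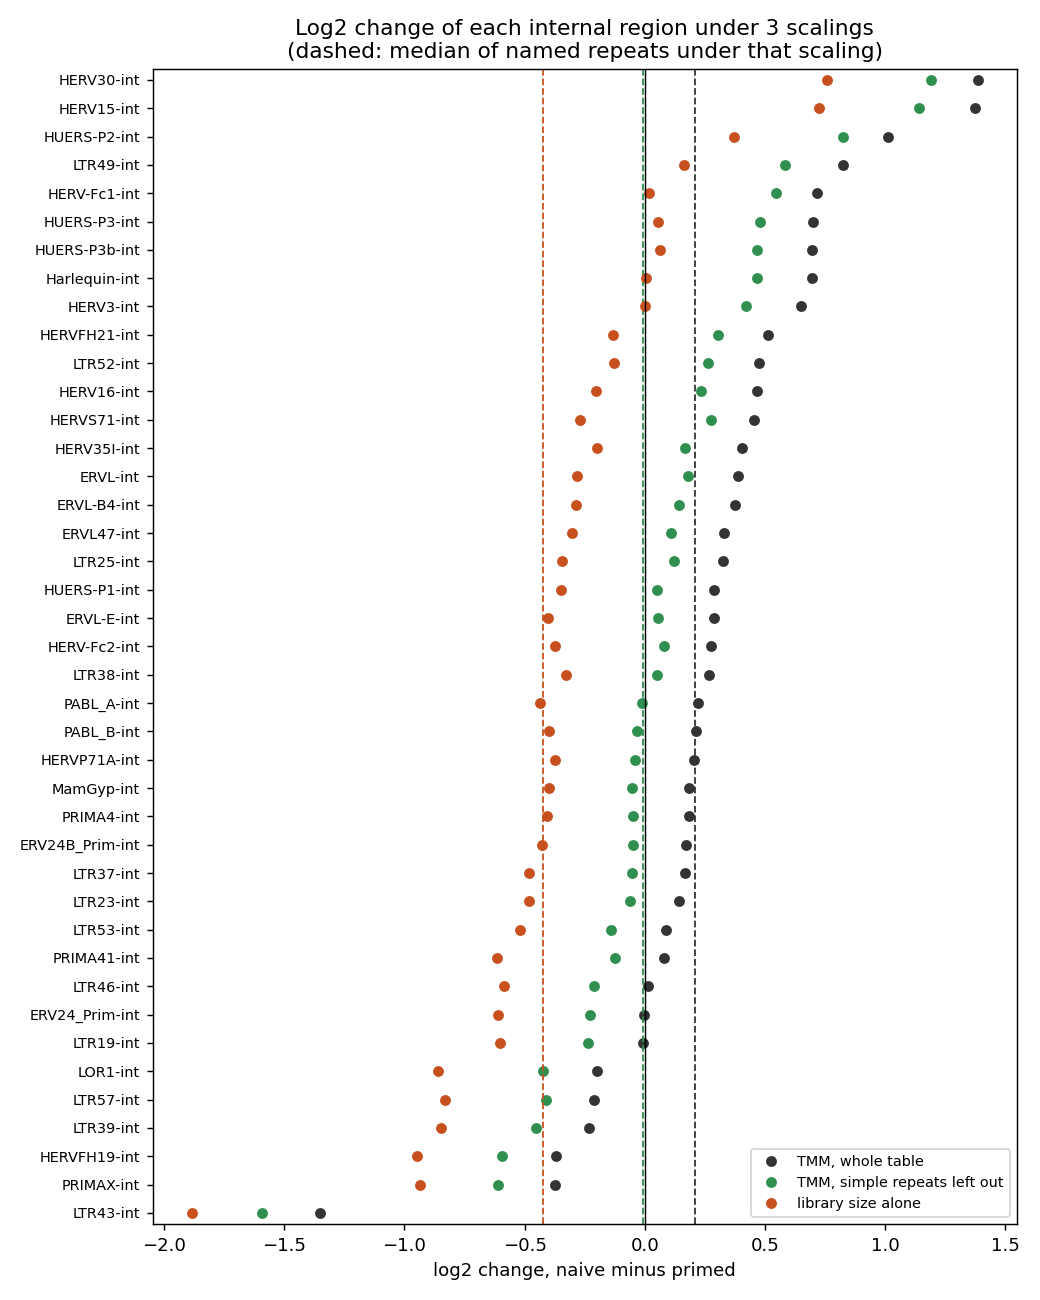
Log2 change of each of the 41 internal regions under TMM on the whole table, TMM without simple repeats and library size alone; dashed lines are the medians of named repeats under each (0.21, -0.0082 and -0.42). The 3 sets of points run side by side, each set shifted by about as much as its dashed line. Other scaling factors shift all entries nearly alike, so this is largely built in.

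Shares of counts need no scaling factor. The members together held 0.697%, 0.493% and 0.614% of all counts in the naive group, against 0.636%, 0.842% and 0.757% in the primed group, and the groups overlapped. With alpha satellite and ribosomal RNA taken out of the total, the shares were 1.02%, 0.956% and 0.939% in naive and 0.775%, 0.883% and 0.826% in primed libraries. The naive shares were then all above the primed ones, so the direction turned with the total. No p-value is given for a sum over members.

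Within the pool of member counts, the 5 ERVL-type entries held 35.7% to 37.5% in naive and 37.3% to 37.8% in primed libraries. The share of a single member in this pool was higher in every naive than in every primed library for 4 of 41 (9.76%) and lower for 7 (17.1%). The 4 were HERV3-int, HERV15-int, HUERS-P3-int and LTR49-int, all of which rose in the count model. Both readings use the same counts, so the shares are no separate support for those calls. Shares within a pool depend on each other, so a rise of some members lowers the shares of others. No such share was taken for entries outside the members, so whether these percentages are particular to them cannot be told. In primed library 2 the pool held 1000 counts, and 20 members had fewer than 10. HERV15-int went from 0.378%, 0.200% and 0.362% in primed libraries to 0.436%, 1.06% and 0.674% in naive ones. LTR43-int, with 0.324%, 0.10% and 0.197% in primed and 0.0780%, 0.0581% and 0.0917% in naive libraries, was among the 7 that were lower. In primed library 2 these shares are 2 counts for HERV15-int and 1 count for LTR43-int, so both separations are weakly determined there. In CPM the LTR43-int groups overlapped.

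LTRs of the same families were examined next, from pairs set by name or by known family (88 LTR entries for 30 members). Of 84 LTRs tested, 13 rose and 1 fell (15.5% and 1.19%, beside 10.4% and 1.19% of named repeats), with a median log2 change of 0.37. The LTR16 entries, partners of HERV16-int, gave 5 of the 13, and the MLT2 entries, shared by ERVL-int and HERVL, gave 4. All 14 of these edgeR calls were lost without naive library 2 and also without primed library 1, and all 13 higher calls with simple repeats left out. By DESeq2, 5 rose and 1 fell.

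Internal region and LTR did not always move alike. Of 8 called members with a partner, 2 had a called LTR: HUERS-P3-int, with LTR9D at 0.69 ± 0.19 and 1 further LTR9 entry, and HUERS-P2-int, with LTR1F2 at 0.81 ± 0.22 (log2, SE; edgeR adjusted p = 0.0382 and 0.0358). LTR15, the partner of HERV15-int, was at -0.29 ± 0.21 (log2, SE; edgeR adjusted p = 0.377), and LTR4, the partner of HERV3-int, at 0.11 ± 0.20 (0.732). LTR30 gave 0.78 ± 0.25 (edgeR adjusted p = 0.0581) and LTR49 gave 0.42 ± 0.14 (0.0735). LTR43 stood at 0.33 ± 0.17 (edgeR adjusted p = 0.219) while LTR43-int fell. Differences between an internal region and its LTR were not tested in the count model.

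The LTR that fell was LTR6A, a partner of HERVS71-int, at -0.73 ± 0.17 (log2, SE; edgeR adjusted p = 0.0238). It was at 72.9 ± 7.28 CPM in the naive group, against 118 ± 25.4 CPM in the primed group (SD, n = 3), with groups that did not overlap. LTR6B, the other LTR of that family, had a positive change of 0.47 ± 0.17 (edgeR adjusted p = 0.0791). LTR39 rose by 0.42 ± 0.13 (log2, SE; edgeR adjusted p = 0.04995), while LTR39-int was below 0 without passing. The LTR39 call held in 3 of 17 alternatives and was lost, among others, with RLE factors (0.39; edgeR adjusted p = 0.0598), by DESeq2 (0.40; 0.123) and without primed library 1 (0.38; 0.298).

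Since both parts of a family are counted in the same library, their ratio is free of the scaling factor. Some partner LTRs are shared, such as LTR2 with HERVE, and the LTR19 entries between LTR19-int and HERVFH19-int. Their ratios are thus not those of a single family. Among the partners of Harlequin-int, LTR2C was at -0.62 ± 0.19, LTR2 at 0.34 ± 0.16 and LTR2B at 0.36 ± 0.18 (log2, SE), none of them called. The ratio of internal to LTR counts was higher in every naive than in every primed library for 7 of 28 families with LTR counts in all libraries (25%), and lower in every naive library for 0 of them (0%). This ratio was not taken for families outside the members, so whether these shares are particular to them cannot be told. The 7 were HERV3, HERV15, HERV30, HUERS-P3, Harlequin, LTR49 and LTR52, of which the internal regions of the first 6 had been called higher from the same counts. HERV15 had ratios of 0.884, 1.96 and 1.23 in naive and 0.357, 0.500 and 0.509 in primed libraries. HERV3 had 6.18, 5.74 and 5.65 in naive and 4.66, 2.15 and 4.35 in primed libraries. In both families the naive ratios lay above all primed ones. In primed library 2, however, the HERV15 ratio is 2 internal over 4 LTR counts, that of HERV30 is 2 over 3 and that of LTR52 is 2 over 13. The separation of these 3 families is thus the most weakly determined there. The others also rest on few counts in that library: HERV3 on 28 over 13, LTR49 on 29 over 22, HUERS-P3 on 20 over 51 and Harlequin on 33 over 35. For HUERS-P3 the groups came close, at 0.405 in naive library 3 and 0.394 in primed library 1.

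For HERVS71 the ratio was 2.97, 2.43 and 2.37 in naive and 1.05, 3.63 and 1.66 in primed libraries, so primed library 2 was the highest of all. LTR43 had 0.144, 0.0863 and 0.123 in naive and 0.453, 0.143 and 0.248 in primed libraries, with an overlap through primed library 2. Summed over all 30 families, the ratio was 0.406, 0.389 and 0.352 in naive and 0.372, 0.349 and 0.361 in primed libraries, and the groups overlapped. A 3 against 3 exact permutation test cannot give a p below 0.1 for any such ratio.

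**Figure D4:**
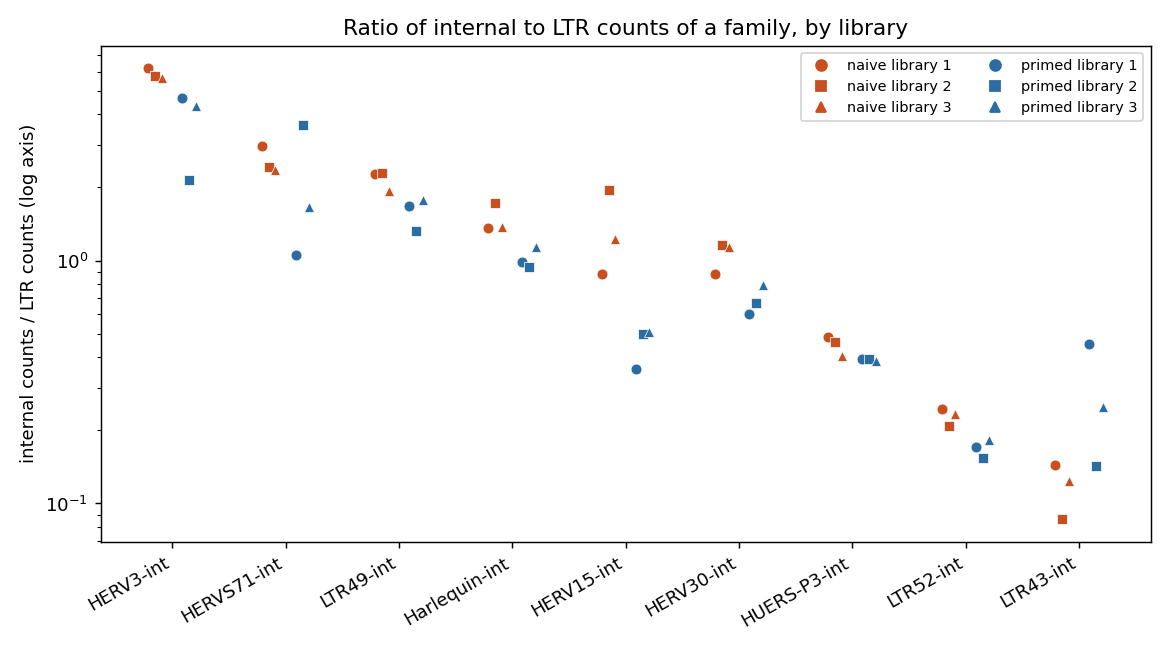
Ratio of internal to LTR counts (log axis) in each library for the 7 families in which every naive ratio lies above every primed ratio, and for HERVS71 and LTR43, where the groups overlap. Symbols mark the library number.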

How the data were processed

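Chromatin-bound RNA of 6 H9 libraries was analysed from a table of raw counts per repeat name, deposited by the authors without normalisation as far as the values show. Per the submitters' processing notes, the tools were Trimmomatic 0.39, STAR 2.7.8a, featureCounts and Subread 2.14.2. Genome build, repeat annotation, strand setting and handling of multiply mapping reads: not given in the sources used here. Columns were matched to samples by title and groups came from the treatment label.

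Counts were fitted over the whole table with edgeR 4.0.16 (R 4.3.3): TMM factors, filterByExpr, quasi-likelihood F-test (naive against primed), Benjamini-Hochberg threshold 0.05. The standard error is the log2 change divided by the square root of F. DESeq2 1.42.0 was an alternative. The fit was tested on simulated counts. Poisson intervals (95%) cover counting error only. Levels are not per length, so they are not compared between members.

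Values are given in every library for members that were called, the 5 largest log2 changes in each direction and the 5 members with the most counts; HERV16-int, HUERS-P1-int, LOR1-int, MamGyp-int and the LTRs named were chosen after their values were seen. The naming rule for members and all lists were set with earlier results of these data known. Figures: matplotlib 3.10.9.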

Additional observations from a re-analysis of the deposited data

How the results depend on the processing

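Against 8 members called higher and 1 lower, the counts were 0 and 5 with library size alone, 3 and 1 with simple repeats left out, 8 and 0 by DESeq2, and 0 and 0 after thinning to the shallowest library, where 19 members were tested (2 alternatives, thinning and DESeq2 on the main filter, were chosen after seeing the data). Leaving out each library in turn gave 0 to 10 higher and 0 to 1 lower. Without primed library 1, edgeR called 0, with an unadjusted p under 0.05 for 13 higher and 1 lower. All 9 calls were kept with RLE or upper-quartile factors, either other filter, without alpha satellite and ribosomal RNA, and by DESeq2 on the main filter. Over the whole table, 38.9% of calls were higher with TMM, 23.3% with upper-quartile factors, 2.61% with library size alone and 64.6% with simple repeats left out.

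The replicate number as a block (replicate block) gave 11 higher and 1 lower, adding HERV16-int, HERV35I-int and HERVS71-int; for the share of counts and the pooled ratio it left the differences at -0.143 percentage points and 0.083 (log2). Single libraries moved both by over 1.5 times: the share difference was -0.0893 without naive library 2 and -0.0950 without primed library 2 (range -0.198 to -0.0893), and the log2 ratio difference was 0.039 without naive library 1 and 0.14 without naive library 3; it was 0.032 with LOR1, HERV35I and MamGyp added after seeing the data. Deviations of same-numbered libraries correlated at 0.146, 0.0867 and 0.0659, and each library correlated best with its own number, a hint from the data and not from the design. Partner LTRs called higher fell from 13 to 8 with RLE, 4 with upper-quartile factors, 0 with library size alone and 6 without alpha satellite and ribosomal RNA, and rose to 29 with the block.

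The member share of counts turned from -0.143 to 0.143 points when alpha satellite and ribosomal RNA were left out of the total. With library size alone these log2 changes turned negative: ERVL-B4-int (-0.28), ERVL-E-int (-0.40), HERVS71-int (-0.27), PABL_B-int (-0.40), HERV16-int (-0.20), LTR52-int (-0.13), LTR4 (-0.57), LTR6B (-0.098), LTR49 (-0.24), LTR43 (-0.27), LTR39 (-0.23), MamGypsy2-I (-0.11), ERV3-16A3_I (-0.20) and HERV4_I (-0.29). PABL_B-int (-0.032) and LTR4 (-0.067) did so with simple repeats left out, LTR4 without primed library 1 (-0.12; without each library in turn, -0.12 to 0.22), and ERVL-B4-int after thinning (-0.031). The cause was not tested. Depth limits the rarer members in primed library 2, where 20 had fewer than 10 counts.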

Other observations

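The table also holds 4 internal regions whose names end in _I or -I, and which the rule therefore left out; they were picked after their values were seen. HERV1_I, a class I entry, was at 7.83, 10.02 and 8.27 CPM in naive and 11.9, 22.3 and 20.0 CPM in primed libraries, so every naive value was below every primed one. Its log2 change of -0.92 ± 0.29 (SE) did not pass (edgeR adjusted p = 0.0576), and primed library 2 held 4 counts. It passed in 6 of 16 alternatives, among them library size alone (-1.56; edgeR adjusted p = 0.000542), no filter (-0.93; 0.0264) and simple repeats left out (-1.10; 0.0378), but not by DESeq2 (-0.95; 0.116) nor in any of the 6 fits without 1 library (-1.23 to -0.59). MamGypsy2-I, the internal part of a further gypsy-type element, was at 230 ± 36.9 CPM in the naive and 153 ± 24.1 CPM in the primed group (SD, n = 3) and rose (log2 change 0.55 ± 0.16, SE; edgeR adjusted p = 0.0467). That call was lost without primed library 1 (0.46; edgeR adjusted p = 0.296) and in 3 other fits without 1 library, and by DESeq2 (0.52; adjusted p = 0.0658). The related MamGyp-int among the members gave 0.18 ± 0.18 (edgeR adjusted p = 0.514).

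ERV3-16A3_I, a class III entry, stood at 0.49 ± 0.17 (log2, SE; edgeR adjusted p = 0.0764) and HERV4_I at 0.32 ± 0.19 (edgeR adjusted p = 0.275).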
